A study of Sinohyriopsis cumingii with 10 samples.

Results

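A set of 150 contigs, out of 211508 that could be read in every library, stood on a broad plateau from 12 h to 7 d after implantation in the pearl sac of Sinohyriopsis (Hyriopsis) cumingii, a freshwater mussel used for pearl culture, with lower levels before and after. A contig is an assembled piece of a transcript. The members were chosen on these same libraries, on CPM (read counts divided by the library's total and put on a common scale) taken as log2(CPM + 1). Each had its lowest value at 12, 24, 48, 96 h and 7 d at least 1 log2 unit above its highest value at 0, 2, 6 h, 14 and 30 d. This gap is called the score below. The other conditions were a mean under 1000 CPM, at least 5 CPM throughout the plateau, and mean levels of 12 and 24 h within 1 log2 unit of those of 48 h, 96 h and 7 d. Contigs whose values at 48 h, 96 h and 7 d all topped every other library by over 0.5 were left out, and the 150 highest scores were kept. The low levels outside the plateau, the high levels within it and the steps at its edges are therefore properties of the choice. They are given as a description without a test.

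RNA was sequenced in 10 libraries, 1 each at 0, 2, 6, 12, 24, 48 and 96 h and 7, 14 and 30 d after implantation of mantle tissue. All libraries are labelled pearl sac and came from mussels aged 2 years with shells of 9 to 10 cm, from 100 ng of mRNA each, and all were from implanted animals. The labels do not give a separate control without implantation, how many mussels went into a library, or what the tissue at 0 h was. No time had a replicate, so animals and times cannot be told apart and no difference between times carries a p-value. Library totals ran from 20315910 to 24069268 reads.

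A pearl sac forms when a graft of mantle, the tissue that secretes the shell, is placed in a host mussel. Haemocytes, the circulating immune cells of molluscs, gather around a fresh graft, and the outer epithelium of the graft then spreads, closes into a pouch and begins to lay down nacre. Early samples can hold wounded tissue and haemocytes as well as graft epithelium. The files give contig numbers without gene names. The functions of the members are therefore not known here, and no marker of haemocytes, epithelium, muscle or another cell type could be looked up to check the tissue label. In bulk tissue, more cells of a type and more RNA per cell cannot be told apart.

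The choice narrowed quickly. Of the 211508 contigs, 211367 had a mean under 1000 CPM and 191 of these had a score of at least 1. The minimum of 5 CPM left 171, the balance between the early and the later part of the plateau left 161, and the drop of contigs topping at 48 h to 7 d left 160. The 10 with the lowest scores among the 160 were then cut by the limit of 150. The border was narrow. The last 3 members had scores of 1.0131, 1.0127 and 1.0112, and the 10 contigs just outside ran from 1.0112 to 1.0002. A further 66 contigs met all else with a score of 0.9 to under 1. Among the members, 48 had a score under 1.1 and 11 a score of 1.5 or more, around a median of 1.18. The number that met every step also depended on single libraries. It was 402 without the 2 h library, 358 without 14 d and 289 without 96 h, since each of these often set the limit. The highest outside value was that of 2 h in 82 members, 14 d in 43, 30 d in 21 and 6 h in 4. The lowest plateau value was that of 96 h in 56 members, 7 d in 33, 12 h in 30, 24 h in 25 and 48 h in 6.

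Together the 150 contigs held 954, 1957 and 1458 CPM at 0, 2 and 6 h, 7205, 8913, 9933, 7019 and 6661 CPM at 12, 24, 48, 96 h and 7 d, and 1851 and 1531 CPM at 14 and 30 d. Their share of all reads was thus 0.0954% at 0 h and reached 0.993% at 48 h. The median member was at 2.47, 5.88 and 3.29 CPM at 0, 2 and 6 h, 22.3, 24.4, 23.9, 19.2 and 20.9 CPM at 12, 24, 48, 96 h and 7 d, and 5.18 and 4.85 CPM at 14 and 30 d. The plateau mean of a member divided by its mean over the other 5 libraries had a median of 5.08, with a range from 2.84 to 16.0. Every member had reads in every library. The fewest were 109 reads inside the plateau, with an exact 95% Poisson interval from 89.5 to 131 reads, and 5 reads outside it, with an interval from 1.62 to 11.7.

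**Figure D1:**
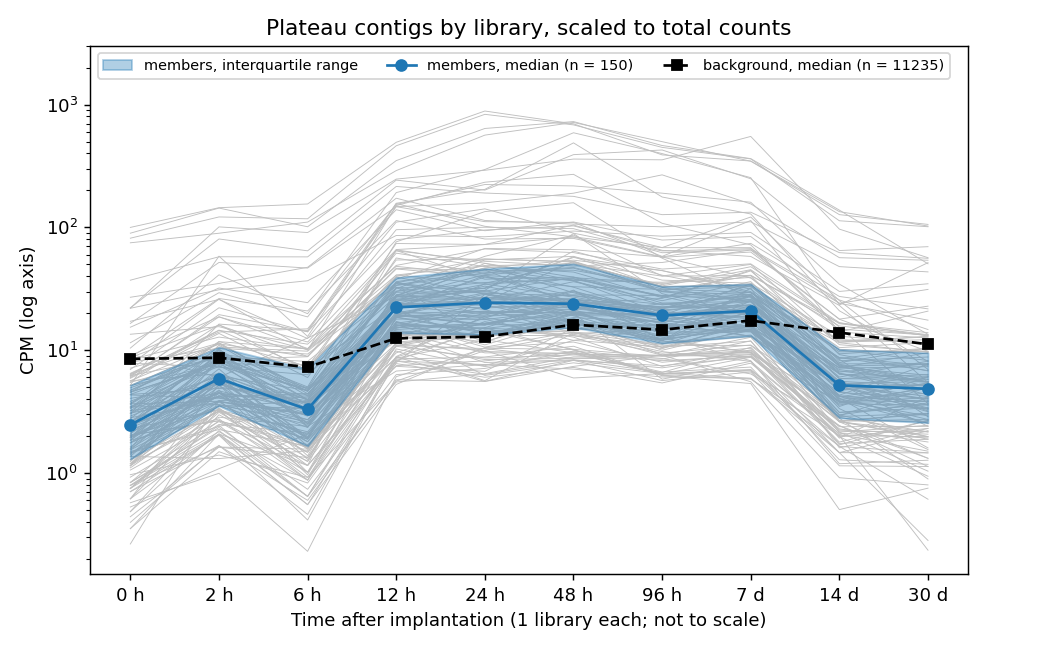
CPM on a log axis in each of the 10 libraries, in order of time. Each grey line is 1 of the 150 members, blue points and band are their median and interquartile range, and black squares are the median of 11235 background contigs (mean under 1000 CPM and at least 5 CPM in 5 or more libraries); the members' median was 3.29 and 22.3 CPM at 6 and 12 h and 20.9 and 5.18 CPM at 7 and 14 d, while the background median lay between 7.28 and 17.4 CPM.

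The member with the highest score was contig085972, 5886 bases long. It was at 11.5, 29.4 and 18.7 CPM at 0, 2 and 6 h, 154, 223, 218, 190 and 160 CPM at 12, 24, 48, 96 h and 7 d, and 34.5 and 13.5 CPM at 14 and 30 d. The 5 plateau libraries thus spanned less than the gap to any other library, and the 30 d level was close to the 0 h level. The ratio of 12 h to 6 h was 8.24 with a counting interval from 7.43 to 9.17, that of 14 d to 0 h was 3.00 (2.60 to 3.46) and that of 30 d to 0 h was 1.17 (0.986 to 1.39), or 0.807 with the TMM scaling described below. The contig with the highest mean CPM on the plateau was contig137186, 5200 bases long. It was at 99.9, 145 and 155 CPM at 0, 2 and 6 h, 493, 886, 697, 389 and 347 CPM at 12, 24, 48, 96 h and 7 d, and 127 and 106 CPM at 14 and 30 d. Its highest library, 24 h, was well above its lowest plateau library, 7 d, so the plateau of this contig had a clear crest. With TMM its 7 d level of 210 CPM lay below its 6 h level of 261 CPM, and its score was the lowest of the members, -0.31. With total counts contig137186 held 7.08% of the members' summed plateau CPM, and the 10 highest members together held 46.8%.

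The 2 members with the lowest late against early levels were picked by the mean of 14 and 30 d minus the mean of 0, 2 and 6 h. The lowest was contig064354, 5986 bases long, at 89.7, 144 and 101 CPM at 0, 2 and 6 h, 350, 639, 727, 464 and 363 CPM at 12, 24, 48, 96 h and 7 d, and 138 and 50.5 CPM at 14 and 30 d. Its 14 d level stood above its 0 h level, with a ratio of 1.54 (1.46 to 1.63), and its 30 d level below it, with a ratio of 0.563 (0.523 to 0.607), so 30 d alone brought it under its start. With TMM the 14 d ratio was 0.889. The next was contig046898, 7995 bases long, at 5.20, 58.3 and 12.9 CPM at 0, 2 and 6 h, 157, 204, 488, 177 and 129 CPM at 12, 24, 48, 96 h and 7 d, and 20.9 and 8.10 CPM at 14 and 30 d. It stood high at 2 h, with a ratio to 0 h of 11.2 (9.27 to 13.6), and both late libraries lay between its 0 h and its 2 h level. Against 0 h alone it did not end low, with ratios of 4.02 (3.28 to 4.97) at 14 d and 1.56 (1.22 to 1.98) at 30 d. With TMM these were 2.32 and 1.07. Its low place thus rests on the early mean, which takes in 2 h.

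**Figure D2:**
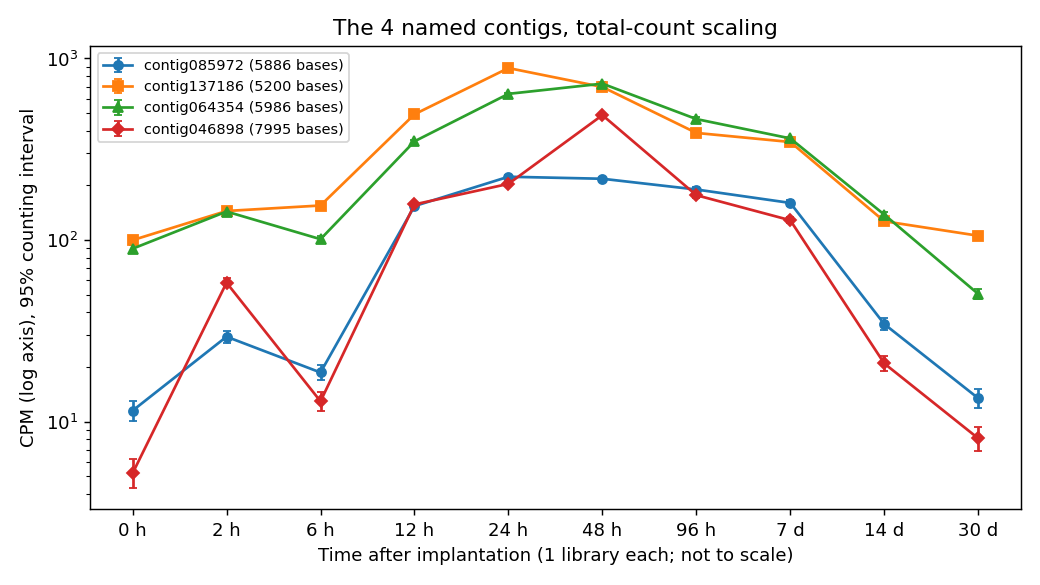
CPM on a log axis by time for the 4 named contigs, 1 library per time, with exact 95% counting intervals. All 4 lie higher at 12 h than at 6 h and lower at 14 d than at 7 d, as the choice requires; contig046898 also has a separate high value of 58.3 CPM at 2 h.

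Further members are given by the place of their score and their length. The second highest score, in a contig of 5337 bases, came with 3.04, 16.3 and 14.5 CPM at 0, 2 and 6 h, 156, 102, 83.7, 68.4 and 68.3 CPM at 12, 24, 48, 96 h and 7 d, and 15.3 and 3.67 CPM at 14 and 30 d, a sharp entry followed by a slow decline. The third, of 1755 bases, was at 10.4, 41.1 and 19.8 CPM at 0, 2 and 6 h, 192, 296, 589, 399 and 254 CPM at 12, 24, 48, 96 h and 7 d, and 23.4 and 51.6 CPM at 14 and 30 d. It had the highest level per length, a mean of 197 RPKM (CPM per kilobase of contig) on the plateau, the largest step down at 14 d (-3.39 on the log2 scale) and the largest step up at 30 d (1.11). The fourth, of 756 bases, was at 1.76, 3.80 and 3.00 CPM at 0, 2 and 6 h, 28.1, 45.6, 36.7, 23.4 and 27.8 CPM at 12, 24, 48, 96 h and 7 d, and 5.18 and 6.03 CPM at 14 and 30 d. All of these kept to the plateau in time but differed in where their highest library fell.

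The plateau varied in form. The range between the highest and the lowest of the 5 plateau libraries had a median of 0.80 log2 units. It was under 0.5 in 30 members and at least 1 in 45. The flattest member, of 6670 bases, was at 85.9, 83.8, 93.4, 84.7 and 90.9 CPM at 12, 24, 48, 96 h and 7 d, a range of 0.15. With TMM its score was -0.16, so it was among the 6 members whose plateau libraries no longer all topped the others. The widest, of 4992 bases, was at 76.2, 134, 159, 56.1 and 26.8 CPM at 12, 24, 48, 96 h and 7 d, a range of 2.52, and is closer to a peak than to a plateau. A dip was also seen with total counts. No count of it with TMM and no share of the background was taken. TMM lowers 7 d more than 96 h (factors of 1.65 and 1.27). In 11 members at least 1 of 24, 48 and 96 h lay 0.5 or more below both ends of the plateau. The deepest, in a contig of 3391 bases, had 32.6, 13.2, 16.6, 11.9 and 32.1 CPM at 12, 24, 48, 96 h and 7 d, and it had only 0.264 CPM at 0 h, from 6 reads. This contig also had the largest step at 12 h among the members, 3.97 log2 units above 6 h.

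By the library in which they were highest, 35, 36, 50, 5 and 24 members crested at 12, 24, 48, 96 h and 7 d. Of the 11235 background contigs, 10.6%, 8.58%, 14.8%, 7.25% and 26.3% were highest at these times, and the rest were highest outside the plateau, where by the choice no member can be. Members that crested at 12 h had medians of 32.4, 24.1, 20.2, 19.1 and 23.3 CPM at 12, 24, 48, 96 h and 7 d. Those that crested at 48 h had medians of 21.4, 22.9, 27.9, 21.5 and 20.4 CPM at 12, 24, 48, 96 h and 7 d. Those that crested at 7 d had medians of 17.0, 14.2, 17.2, 15.4 and 21.3 CPM at 12, 24, 48, 96 h and 7 d, and they were shorter, with a median length of 2232 bases against 3050 for those that crested at 12 h. These groups rest on total counts, since with TMM 3 members crested at 7 d and 62 at 12 h. Lower at 96 h than at 48 h were 136 of 150 members, against 60.4% of the background. With TMM scaling, described below, the number was 114, against 46.6% of the background. Whether members were higher again at 7 d than at 96 h depended on the scaling: 97 were with total counts, against 73.1% of the background, and 36 with TMM, against 39.4% of the background.

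The scaling of the libraries bears on all of this. The contigs with a mean of 1000 CPM or more held 56.5%, 55.6% and 58.6% of the reads at 0, 2 and 6 h, and 31.7% (7 d) to 45.8% (24 h) on the plateau. The median background contig was higher than at 0 h by 0.37, 0.49, 0.91, 0.82 and 1.05 log2 units at 12, 24, 48, 96 h and 7 d, and by 0.65 and 0.34 at 14 and 30 d. TMM scaling, which assumes that most contigs do not change, removed this shift. The background median was then between -0.13 and 0.04 from 0 h at every time. Its smallest factor was 0.594, at 6 h, and its largest 1.65, at 7 d. Under TMM the members' score had a median of 0.39. It was above 0 in 144 of 150, so that all 5 plateau libraries still topped all others in these, and at least 1 in 6. The crest moved in members and background alike: 62, 66, 14, 5 and 3 members were then highest at 12, 24, 48, 96 h and 7 d, beside 13.5%, 17.3%, 5.02%, 7.45% and 3.60% of the background.

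Relative to the median of the background, the members followed nearly the same course under both scalings. A scaling factor moves the members and the background of a library alike. This likeness is therefore nearly fixed by the calculation and is no check on the scaling. The median member's difference from 0 h exceeded that of the background by 0.91 and 0.54 log2 units at 2 and 6 h, by 2.22, 2.26, 1.84, 1.57 and 1.49 at 12, 24, 48, 96 h and 7 d, and by 0.17 and 0.29 at 14 and 30 d. With TMM it did so by 1.02 and 0.57 at 2 and 6 h, by 2.31, 2.40, 1.93, 1.72 and 1.62 over the same plateau times, and by 0.27 and 0.39 at 14 and 30 d. On this relative scale the level was highest at 12 and 24 h and then lay lower at each later time to 14 d, so that the flat top seen in CPM was a descending slope. These values share the single 0 h library.

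**Figure D3:**
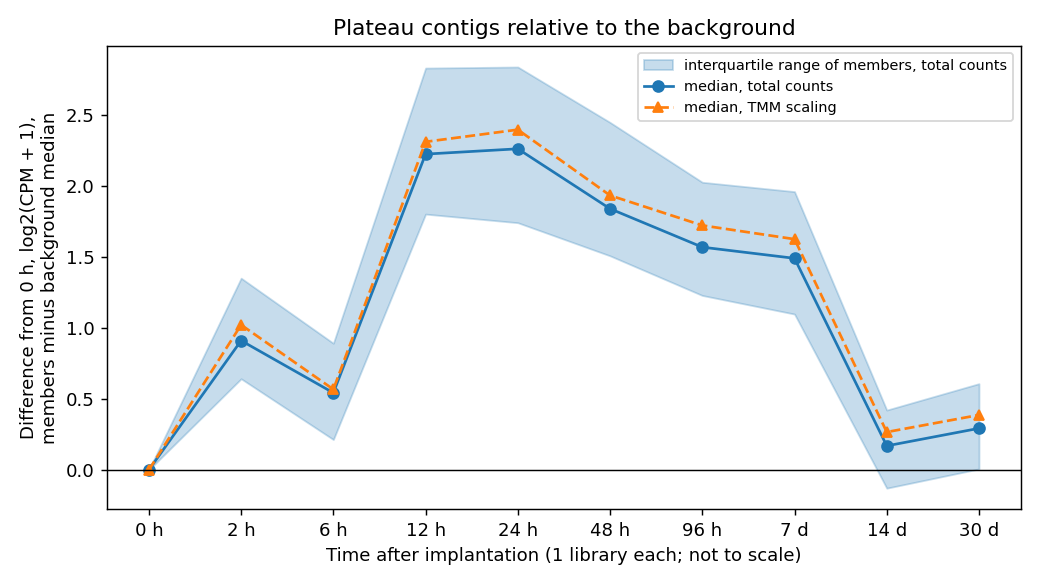
Difference from 0 h in log2(CPM + 1) of the median member minus that of the median background contig, by time. Blue circles use total counts, with the interquartile range of the members as a band, and orange triangles use TMM; both lines are highest at 12 and 24 h (2.22 and 2.26 with total counts) and reach 1.49 and 1.62 at 7 d.

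The early times were held low by the choice, but their order was not fixed by it. At 2 h, 146 of 150 members lay above their 0 h level, against 48.7% of the background. At least 1 log2 unit above 0 h were 64 members (42.7%), against 15.6% of the background, and none lay 1 unit below, against 6.5% of the background. At 6 h, 14 members (9.33%) were at least 1 unit above 0 h, against 8.45% of the background, but with TMM 31 members (20.7%) were, against 10.7% of the background. From 2 h to 6 h, 137 members were lower at 6 h, against 64.4% of the background, and 42 (28.0%) were at least 1 unit lower, against 12%. The median member changed by -0.64 log2 units between these 2 libraries, and the median background contig by -0.22. The 2 h value topped both 0 h and 6 h in 135 members and in 38.9% of the background. With TMM scaling 67 members were at least 1 unit above 0 h at 2 h, against 15% of the background, and 2 h topped both neighbours in 113 members, against 30.9%. The change between 2 and 6 h was then -0.41 in the median member and 0.05 in the median background contig. The excess at 2 h rests on 1 library. A contig of 3364 bases showed it, with total counts, with a smaller fall at 6 h: 22.0, 101 and 90.8 CPM at 0, 2 and 6 h, 247, 292, 360, 355 and 550 CPM at 12, 24, 48, 96 h and 7 d, and 96.8 and 56.6 CPM at 14 and 30 d. TMM raises 6 h more than 2 h (factors of 0.594 and 0.733), so this small fall depends on the scaling.

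**Figure D4:**
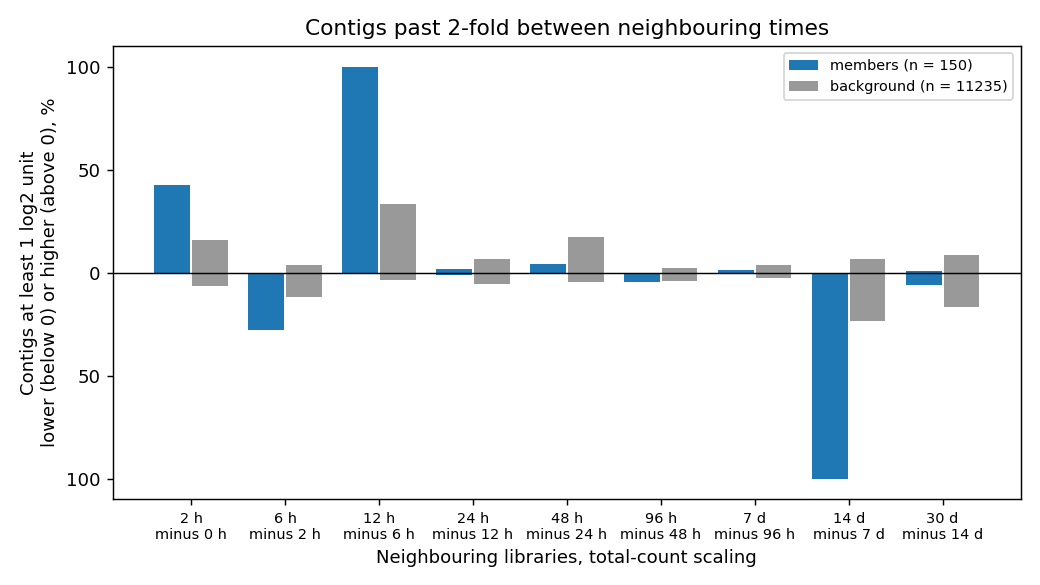
Share of contigs at least 1 log2(CPM + 1) unit higher (bars above 0) or lower (bars below 0) than at the time before, with members in blue on the left and background in grey on the right of each pair. The choice fixes the bars of 100% at 12 h and 14 d; at 2 h 42.7% of the members and 15.6% of the background were higher.

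The edges of the plateau were steep. At 12 h all 150 members were at least 1 log2 unit above 6 h, as chosen, against 33.3% of the background, with a median of 2.38 and a range from 1.07 to 3.97. With TMM, 141 of the 150 were at least 1 unit higher, against 16.4% of the background. At 14 d all were at least 1 unit below 7 d, again as chosen, against 23.5% of the background, with a median of -1.76. With TMM 113 were at least 1 unit lower, against 10.9% of the background. Steps between neighbouring times inside the plateau were small. At 24 h against 12 h, 3 members were at least 1 unit higher and 2 lower, against 6.41% and 5.55% of the background. At 48 h against 24 h, 6 were higher and none lower, against 17.3% and 4.46%, but with TMM none were higher and 15 lower, against 4.7% and 12.7%. At 96 h against 48 h, none were higher and 7 (4.67%) lower, against 3.92% of the background lower, and with TMM 6 (4.00%) lower, against 2.32%. At 7 d against 96 h, 2 were higher and 1 lower, against 3.86% and 2.47%, and with TMM none were higher and 4 lower, against 1.51% and 4.69%. Across the whole plateau the change depended on the scaling. From 12 h to 7 d the median member changed by -0.04 log2 units with total counts, against 0.60 in the background. With TMM it changed by -0.74, against -0.10, and 51 members were at least 1 unit lower, against 19.4% of the background. The choice bounds these inner steps through the means of the plateau's 2 parts, its lowest value and the drop of contigs topping at 48 h to 7 d. The background has no such limits, so the small inner steps are in part fixed by the choice.

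After the plateau the members came back near their early level. The mean of 14 and 30 d minus that of 0, 2 and 6 h had a median of 0.32 log2 units, with 133 members above 0 and 17 below, against a background median of 0.56 with 81.5% above 0. This direction depends on the scaling, since with TMM the median was -0.24, with 27 members above 0, and the background median -0.06. Under both scalings the members thus stood lower than the background by this measure, which takes in 2 h. Against 0 h alone they stood higher. Their medians were 0.81 at 14 d and 0.64 at 30 d, against 0.65 and 0.34 in the background. With TMM they were 0.22 and 0.25, against -0.05 and -0.13. By the first measure, only 1 member ended at least 1 unit above its start, against 20.5% of the background, and none 1 unit below, against 4.04%. That member, of 8275 bases, was at 6.21, 18.7 and 11.7 CPM at 0, 2 and 6 h, 66.0, 72.5, 83.4, 57.5 and 74.1 CPM at 12, 24, 48, 96 h and 7 d, and 27.4 and 21.7 CPM at 14 and 30 d. The choice holds 14 and 30 d, like 0, 2 and 6 h, at least 1 unit below the lowest plateau value, which limits this measure. At 14 d against 0 h alone, 46 members (30.7%) were at least 1 unit higher, against 31.3% of the background, and with TMM 12 (8.00%), against 9.45%. At 30 d against 14 d, 1 member was at least 1 unit higher and 9 lower, against 8.36% and 16.9% of the background.

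Contig length was not itself a condition of the choice. CPM is not divided by length, however, so a minimum of 5 CPM favours long contigs, in the members and in the background. All readable contigs with reads had a median of 405 bases. The members had a median of 2846 bases, with quartiles at 1860 and 3982, and the background a median of 2615 with quartiles at 1575 and 4048. Contigs of at least 3000 bases made up 49.3% of the members and 41.8% of the background, and those under 500 bases 1.33% and 4.38%. The lengths of the members thus lay largely within the middle of the background's. The longest had 12779 bases, and the shortest, of 114 bases, reached 10.4 CPM at 24 h from a level of 0.573 CPM at 0 h. Per length, the plateau mean had a median of 9.22 RPKM in the members and of 6.68 RPKM in the background, and the members ran from 1.44 to 197 RPKM. The minimum of 5 CPM at each plateau time raises the members' level. No pair of members had contig numbers within 10 of each other, and the closest pair was 11 apart.

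The balance between the early and the later part of the plateau, here the tilt (mean of 48 h, 96 h and 7 d minus mean of 12 and 24 h), removed 10 contigs, of which 7 were higher at 12 and 24 h and 3 higher at 48 h to 7 d. The first kind had tilts from -1.23 to -1.02 log2 units and the second from 1.04 to 2.03, beside -0.98 to 0.80 in the members. The single contig dropped for topping at 48 h to 7 d, of 1437 bases, had a tilt of 0.89, and its lowest value there exceeded all other libraries by 0.71. The median tilt of the members was -0.09 with total counts, against 0.42 in the background. With TMM it was -0.62, against -0.10. The choice limits the tilt of the members on both sides and drops contigs topping at 48 h to 7 d, while the background has no such limits, so this difference is in part fixed by the choice.

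**Figure D5:**
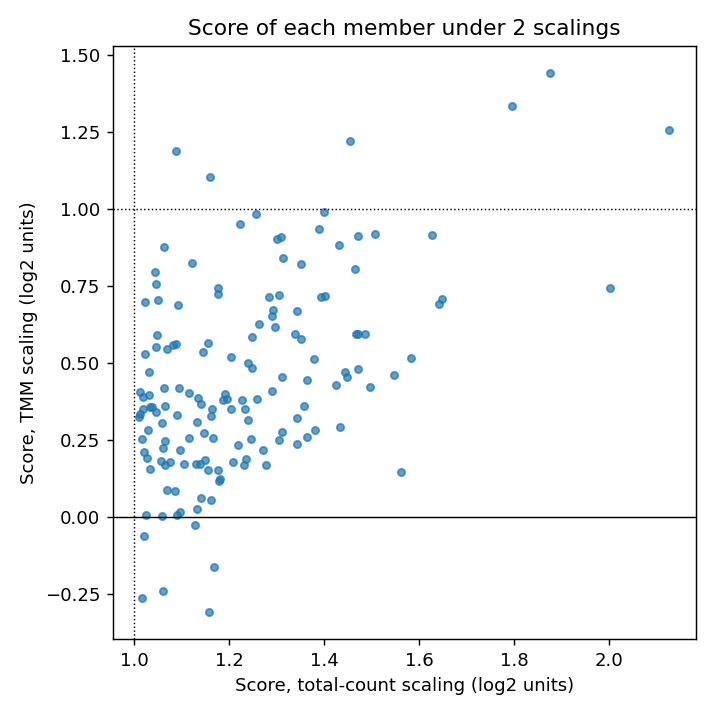
Score of each of the 150 members (lowest of 12 h to 7 d minus highest of the other times, in log2 units) with total counts across and with TMM scaling upward. Dotted lines mark the limit of 1; with TMM 6 members lie at or above it, 144 lie above 0, and contig137186 has the lowest value, -0.31.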

How the data were processed

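The deposited file of each library lists contigs with a reads column and an RPKM column, per the file headers. The reads column was treated as holding expected counts: the deposited values are whole apart from 0.5, which stands where RPKM is 0 and was read as 0. RPKM values deposited by the authors served only to derive contig length. Assembler, aligner and counting program: not given in the sources used here. The 30 d file holds a damaged line, and its 166 contigs were left out of all libraries, leaving 211508 of 211674; over the other 9 libraries none of them met the rule.

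CPM used the sum of each reads column and a pseudocount of 1 CPM on the log2 scale. TMM factors came from 52894 contigs kept by filterByExpr (edgeR 4.0.16, R 4.3.3), size factors from DESeq2 1.42.0. The rule was run on simulated counts with planted plateaus. These held no shift in library composition, so the run could not check the effect of scaling. With 1 library per time and members chosen on these libraries, no test was made. A change means at least 1 log2(CPM + 1) unit. Intervals are exact 95% Poisson or binomial and cover counting error only; reads carried no molecular identifiers, and libraries were amplified by PCR, per the labels' protocols. Members, comparisons and alternatives were chosen with earlier results of these data known. Named contigs were the highest score, the highest plateau CPM and the 2 lowest late against early levels; IDs were limited to 4, and members given by length were chosen after their values were seen. Counting without strand cannot separate overlapping transcripts, and near-identical copies may share reads.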

Additional observations from a re-analysis of the deposited data

How the results depend on the processing

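No paired analysis was possible because each time had 1 library. The count of 160 contigs meeting every step was 8 with TMM and 8 with DESeq2 size factors, 62 with totals without contigs of mean 1000 CPM or more, 45 with a pseudocount of 5 CPM and 11 with a score limit of 1.5; with each library left out in turn it ran from 160 to 402. It stayed within 1.5 times with a pseudocount of 0.5 CPM (188), no minimum CPM (180), a minimum of 10 CPM (118) and a balance limit of 0.5 (124). Of the 150 members, 6 met it with TMM, 7 with DESeq2, 47 without the abundant contigs in the totals and 44 with 5 CPM. In the same order of settings (TMM, DESeq2, totals without abundant contigs, 0.5 CPM, 5 CPM), the median score of 1.18 was 0.39, 0.39, 0.87, 1.25 and 0.87, and 1.18 to 1.33 over left-out libraries. The median step at 12 h of 2.38 was 1.80, 1.77, 2.13, 2.52 and 1.60. Leaving out a library can only keep or raise a score. The median score could therefore not fall that way, and the count of contigs could fall only through the other conditions. The median step at 14 d of -1.76 was -1.28 with TMM, -1.28 with DESeq2 and -1.29 with 5 CPM. The late against early median of 0.32 turned to -0.24 with TMM, -0.23 with DESeq2 and -0.046 with totals without abundant contigs; it was 0.36 with 0.5 CPM, 0.17 with 5 CPM and 0.14 (without 0 h) to 0.59 (without 2 h) over left-out libraries. Members at least 1 unit up by this measure numbered 0 with TMM, DESeq2, totals without abundant contigs and 5 CPM, 3 with 0.5 CPM and 0 to 11 over left-out libraries, and those 1 unit down 1 with TMM, 1 with DESeq2 and 0 to 2 over left-out libraries. The median tilt of -0.09 was -0.62 with TMM, -0.61 with DESeq2 and -0.32 with totals without abundant contigs. For none of these shifts was the cause tested. TMM counts at 2 h, 6 h, 96 h, 7 d and 14 d and for the crest were added after seeing the data. With TMM, 31 members were at least 1 unit higher at 6 h than at 0 h (14 with total counts), 12 at 14 d than at 0 h (46), and 36 were higher at 7 d than at 96 h (97). Those at 2 h and 96 h stayed within 1.5 times, as did the members that crested at 12, 24 or 48 h as 1 count (142 with TMM, 121 with total counts), but among these the crest at 48 h fell to 14 members with TMM, against 50 with total counts. With a background of at least 1 CPM in 5 libraries, the shares at 2 h, 12 h and 14 d were 11.5%, 26.7% and 20.3%. Depth limits the members most outside the plateau, where the fewest reads behind a value were 6 at 0 h, 5 at 6 h and 5 at 30 d.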
